A study of Mus musculus with 12 samples.

Results

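The STAT and JAK genes measured here were 9 genes taken by symbol, namely Stat2, Stat3, Stat4, Stat5a, Stat5b, Stat6, Jak1, Jak2, and Tyk2, out of 54119 genes with summed counts. All 9 were among the 19150 genes with enough counts to be tested. They were measured by RNA-seq in cerebral vessels, isolated from the brain before RNA extraction. The mice were wild type C57BL6 animals of 2 to 3 months. They received PBS or lipopolysaccharide (LPS), a component of the outer membrane of gram-negative bacteria, at 10 mg/kg into the peritoneal cavity. LPS vessels were collected after 15 min, after 30 min, or after 4 h, and each of the 4 groups had 3 libraries. Each library pooled the vessels of 1 male and 1 female mouse, so no value belongs to a single animal or a single sex. The comparisons ask how early the transcripts of this signaling pathway change in the vessels after a systemic inflammatory stimulus.

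Cytokine receptors without an enzyme of their own carry Janus kinases (the products of the Jak genes and Tyk2) on their inner side. Binding of a cytokine or interferon brings the kinases together, the kinases phosphorylate STAT proteins, and the STAT dimers enter the nucleus and start transcription of target genes. Those targets include the SOCS proteins, which inhibit the kinases, and in many cells some STAT genes themselves. In brain endothelial cells the pathway carries interferon and interleukin-6 family signals from the blood.

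The depth was 18.3 to 25.9 M fragments per library. Expression is given as CPM, counts scaled to a common library total after TMM scaling (a trimmed mean of M-values factor that corrects for a few genes taking much of a library), and levels of different genes are compared only as TPM, which divides by transcript length. The mean TMM factor was lowest at 4 h (0.717) and was 1.17 in PBS, 1.15 at 15 min, and 1.04 at 30 min. A gene was called when edgeR placed its change outside a 1.5-fold limit (0.58 in log2), with p adjusted across every tested gene by the Benjamini-Hochberg method and a threshold of 0.05. All 8 endothelial markers, among them Cldn5 and Cdh5, were present in the 4 groups. Their summed level was 7612 to 7788 CPM in PBS and 4922 to 4971 CPM at 4 h. The markers did not move together. Of the 8, 5 were called lower at 4 h and 1, Cdh5, higher (13.9% and 19.1% of all genes). Cldn5 was at -2.31 (SE 0.0224) and Cdh5 at 1.96 (SE 0.0215) on the log2 scale, and Flt1 (-0.08) and Emcn (-0.09) were not called. Markers of blood cells were also present. Neutrophil markers summed to 4.20 to 5.0 CPM in PBS and 183 to 184 CPM at 4 h, and erythrocyte markers to 2317 to 2492 CPM and 6941 to 7306 CPM. Their part in the results below was not tested, other than where values are given. In whole vessels, a change in the number of cells of a type cannot be told apart from a change in RNA per cell.

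The sequence just before the transcription start is shown for the STAT genes whose promoters bear on the interferon motif. RefSeq (build GRCm38.p6) gave 12 start sites for the 9 genes, each with 250 bases before and 50 after the start. The 3 motifs below were searched on both strands: GAAA then any 2 bases then GAAA, the core of the interferon-stimulated response element bound by the Stat2 complex with Irf9, TTCNNNGAA, the GAS form bound by STAT dimers, and GGGA then any 2 bases then TTCC, a kappaB form. The first was found in 3.44% of all 32851 promoters, the second in 8.30%, and the third in 1.47%. Among the member promoters, matches to the first were found at Stat2 and at the second start site of Stat4. No promoter of the 9 genes held the GAS or kappaB letters, so no matches of different motifs overlapped, and their absence says only that these letters are not in these windows. In the Stat2 and Stat4 sequences the match is in capitals.
Stat2, chr10:128270248-128270325, plus strand: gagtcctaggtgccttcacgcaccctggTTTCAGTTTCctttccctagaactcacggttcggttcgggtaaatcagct
Stat4, second start site, chr1:52008103-52008192, plus strand: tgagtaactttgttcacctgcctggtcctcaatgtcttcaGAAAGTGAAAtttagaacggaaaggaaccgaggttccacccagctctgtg
Stat3, chr11:100939541-100939790, minus strand, the 250 bases before the start, with no match: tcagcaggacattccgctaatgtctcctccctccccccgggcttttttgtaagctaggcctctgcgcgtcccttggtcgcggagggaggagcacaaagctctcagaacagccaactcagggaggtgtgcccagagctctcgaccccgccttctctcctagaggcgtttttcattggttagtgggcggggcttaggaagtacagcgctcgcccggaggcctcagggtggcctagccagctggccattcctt
The Stat2 match begins at position -222 from the RefSeq start and reads on the minus strand. The Stat4 match begins at position -97 from a start that lies inside the gene, in an intron of the transcript Stat4-202 and just before Stat4-201. The Stat3 sequence is given because Stat3 had the highest level per length of the 9 genes in PBS and at 4 h. Promoters differed widely in base composition, with GC at 81% for Jak2 and 82.7% for the first start of Stat5b against a median of 52.7% over all promoters.

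At LPS 4 h, 6 of the 9 genes were called higher than in PBS and none was called lower. The 6 were Stat2, Stat3, Stat4, Stat5a, Jak1, and Jak2, and the other 3, Stat5b, Stat6, and Tyk2, were not called. Of all genes tested in that comparison 33.0% were called (19.1% higher, 13.9% lower). Over the 9 genes the median log2 fold change was 2.53, and over all genes tested -0.01. Against no change, the second test used here, all 9 passed (6 higher, 3 lower), as did 68.5% of all genes (34.9% higher, 33.7% lower). In CPM the 4 h libraries did not overlap those of PBS for any of the 9, nor for 70.9% of all genes. In the deposited normalized table those of Stat6 did overlap. Leaving out any of the 12 libraries left 6 called. The plot of CPM by library shows the 9 genes side by side.

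**Figure D1:**
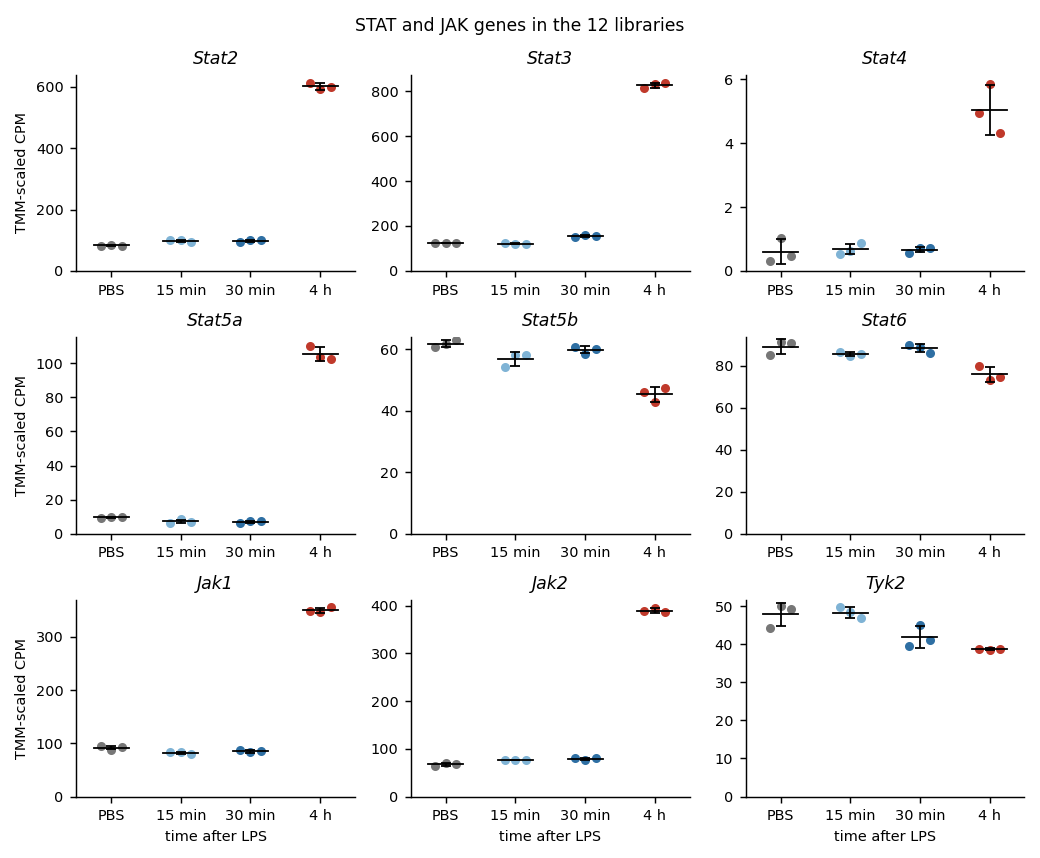
CPM after TMM scaling (linear axes from 0) of each STAT and JAK gene in the 12 libraries by group, with points for libraries, a line for the mean, and bars for the SD of 3 libraries. The 4 h points of Stat2, Stat3, Stat4, Stat5a, Jak1, and Jak2 lie above all the other points of the gene, and those of Stat5b, Stat6, and Tyk2 lie below those of PBS.

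Stat2, the STAT of type I interferon signaling that pairs with Irf9, lies on chr10:128270559-128292849 (GRCm38, plus strand). Its level was 80.8, 85.5, and 82.4 CPM in PBS and 612.9, 591.0, and 597.8 CPM at 4 h. The 4 h libraries were far above PBS, by 7.24-fold (log2 2.86, SE 0.0339, edgeR adjusted p = 1.62e-25). It was also slightly above PBS before that. The libraries gave 100.5, 100.7, and 94.5 CPM at 15 min and 93.7, 100.2, and 100.03 CPM at 30 min, with no overlap with PBS in CPM. In the deposited normalized table both early groups overlapped PBS, with 2073 to 2284 at 15 min, 1952 to 2129 at 30 min, and 1993 to 2098 in PBS. The log2 differences of 0.25 (SE 0.0349) and 0.24 (SE 0.0353) were within the 1.5-fold limit and were not called. They passed the edgeR test against no change, with adjusted p of 4.30e-06 and 8.73e-06. That second test is permissive, since 38.6% of all genes passed it at 15 min and 36.9% at 30 min.

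Stat3, the STAT of interleukin-6 family cytokines, lies on chr11:100885098-100939540 (minus strand). Its level was 123.6, 124.5, and 125.1 CPM in PBS, 123.3, 119.6, and 120.4 CPM at 15 min, and 150.3, 157.8, and 154.2 CPM at 30 min. The 30 min libraries lay above those of PBS and of 15 min without overlap, while those of 15 min lay just below PBS. At 4 h the level was 813.4, 829.7, and 835.5 CPM, which was 6.64-fold higher (log2 2.73, SE 0.0263, adjusted p = 3.27e-27). The 30 min difference from PBS was 0.31 (SE 0.0266), was not called, and passed the test against no change at adjusted p = 2.55e-09. From 15 to 30 min the difference was 0.35 (SE 0.0267) and the corresponding adjusted p was 4.21e-10. Of all genes 37.4% passed the test against no change between 30 and 15 min, and Stat3 and Tyk2 were the members that did.

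Stat5a and Stat5b encode close relatives that act downstream of growth hormone, prolactin, and several interleukin receptors. They lie next to each other on chr11 in opposite orientations, Stat5b at chr11:100780731-100850724 (minus strand) and Stat5a at chr11:100859351-100885169 (plus strand), with 8626 bases between their starts. At its 3′ end Stat5a overlaps Stat3 by 72 bases, and since the library kit does not mark strand, reads in that overlap cannot be told apart. Stat5a was at 9.29, 9.78, and 9.73 CPM in PBS and at 110.0, 103.7, and 102.7 CPM at 4 h. In the fit of all 12 libraries it had the largest log2 fold change among the 9 genes, 3.46 (SE 0.0736, adjusted p = 9.08e-21), which is 10.97-fold. Leaving out any library gave 3.43 to 3.47 for Stat5a, and without PBS library 2 Stat4 was higher, at 3.71. Earlier Stat5a lay below PBS in CPM, at 6.51, 8.41, and 6.98 CPM at 15 min and at 6.50, 7.40, and 7.46 CPM at 30 min. In the deposited normalized table the 30 min libraries overlapped PBS, with 127 to 201 at 30 min and 198 to 224 in PBS. The log2 differences from PBS at 15 and 30 min were -0.41 (SE 0.0909) and -0.43 (SE 0.0936). Neither was called, and both passed the test against no change, at adjusted p of 0.00104 and 0.000799.

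Stat5b did not follow its neighbor. It was at 60.9, 61.8, and 62.9 CPM in PBS and at 46.0, 42.8, and 47.3 CPM at 4 h, below PBS without overlap. The log2 fold change of -0.45 (SE 0.0499) was inside the 1.5-fold limit and not called, and passed the test against no change at adjusted p = 3.56e-08. At 15 min Stat5b had 54.2, 58.2, and 58.2 CPM and at 30 min 60.7, 58.5, and 60.2 CPM, all below PBS. The 15 min difference of -0.12 (SE 0.0456) was not called and passed the test against no change at adjusted p = 0.0375. Per transcript length, Stat5a was 0.252 ± 0.0193 (SD, n = 3) of Stat5b in PBS, 0.201 ± 0.0335 at 15 min, 0.208 ± 0.0502 at 30 min, and 4.00 ± 0.205 at 4 h. The order of the pair was therefore turned around at 4 h, in each of the 3 libraries. A ratio taken within a library does not depend on the scaling between libraries. With 3 libraries per group an exact permutation test cannot go below 0.1, so no p is given for it. Because the genes are close in sequence, reads could be shared between them, and their counts were also summed into 1 feature, which rose by 1.08 (SE 0.0403, adjusted p = 1.60e-11) on the log2 scale at 4 h.

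**Figure D2:**
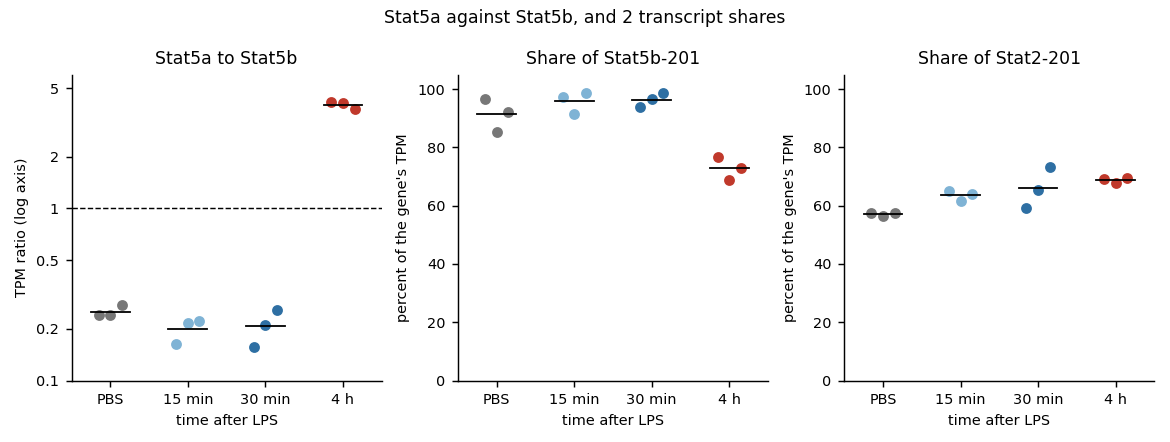
Left, TPM of Stat5a divided by TPM of Stat5b in each library on a log axis, with a dashed line at 1. Middle and right, the percent of the TPM of Stat5b and Stat2 that Salmon assigned to Stat5b-201 and Stat2-201. Points are libraries and lines are means. The ratio is below 1 in the 9 libraries before 4 h and 3.77 to 4.13 at 4 h.

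Stat4, which conveys interleukin-12 signals and is known from T and NK cells, lies on chr1:51987148-52107189 (plus strand). It was the least abundant of the 9, with 0.30, 1.05, and 0.46 CPM in PBS, from 8, 31, and 12 counts. At 15 min it had 0.54, 0.64, and 0.87 CPM and at 30 min 0.56, 0.73, and 0.72 CPM, all within the PBS range. At 4 h it had 4.93, 5.86, and 4.30 CPM, from 64, 88, and 63 counts. The log2 fold change was 3.03 (SE 0.356, adjusted p = 7.33e-07). It was 3.71 without PBS library 2, which had the most counts of the 3 controls, and 2.71 without PBS library 1, and was called in both cases. The 6 T and NK cell markers Cd3e, Cd3g, Cd8a, Cd2, Nkg7, and Klrb1c summed to 2.77 to 3.32 CPM in PBS and 2.60 to 3.07 CPM at 4 h. Of these 6, none was called higher at 4 h and 1, Cd3e, was called lower (named after its value was seen). Neutrophil markers, with 5 of 5 tested called higher and Ly6g at 0 in PBS and too low to test, and monocyte markers, with 2 of 3 called higher and a summed level of 38.5 to 47.5 CPM in PBS and 114 to 121 CPM at 4 h, moved in the same direction as Stat4. Their part in the Stat4 result was not tested.

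Stat6, the STAT of interleukin-4 and interleukin-13, lies on chr10:127642986-127660957 (plus strand). It had 85.1, 91.1, and 90.9 CPM in PBS, 86.4, 84.7, and 85.4 CPM at 15 min, 89.8, 88.6, and 86.0 CPM at 30 min, and 79.8, 72.9, and 74.6 CPM at 4 h. The 4 h libraries were below all the others in CPM. In the deposited normalized table they overlapped PBS, with 1429 to 1818 at 4 h and 1767 to 1984 in PBS. The log2 fold change of -0.23 (SE 0.0425) was not called, and passed the test against no change at adjusted p = 3.86e-05.

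Jak1, the kinase shared by interferon, common gamma chain, and gp130 receptors, lies on chr4:101152367-101265282 (minus strand). It had 94.9, 88.4, and 92.9 CPM in PBS and 348.9, 346.3, and 355.4 CPM at 4 h, which was 3.81-fold higher (log2 1.93, SE 0.0334, adjusted p = 2.54e-21). This was the smallest of the 6 called changes. Before 4 h it lay below PBS in CPM, at 83.2, 83.0, and 79.6 CPM at 15 min and at 88.3, 82.8, and 85.3 CPM at 30 min. In the deposited normalized table the 30 min libraries overlapped PBS, with 1810 to 2019 at 30 min and 1957 to 2123 in PBS. The 15 min difference of -0.17 (SE 0.0347) and the 30 min difference of -0.11 (SE 0.0351) were not called.

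Jak2, the kinase of the erythropoietin, growth hormone, and interferon-gamma receptors, lies on chr19:29251828-29313080 (plus strand). It had 64.3, 70.2, and 67.9 CPM in PBS, 76.7, 76.6, and 77.2 CPM at 15 min, and 79.8, 76.0, and 80.7 CPM at 30 min. Both early groups lay above PBS without overlap, by 0.19 (SE 0.0354) and 0.22 (SE 0.0358) on the log2 scale, and neither difference was called. At 4 h it had 388.5, 395.3, and 386.3 CPM, which was 5.78-fold higher (log2 2.53, SE 0.0339, adjusted p = 2.93e-24).

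Tyk2, the kinase that type I interferon and interleukin-12 receptors use together with Jak1 or Jak2, lies on chr9:21104068-21131243 (minus strand). It had 44.2, 49.97, and 49.3 CPM in PBS, 49.7, 48.4, and 47.0 CPM at 15 min, 39.5, 45.1, and 41.1 CPM at 30 min, and 38.9, 38.4, and 38.8 CPM at 4 h. The 4 h difference of -0.31 (SE 0.0606) was not called, and passed the test against no change at adjusted p = 0.000107. At 30 min the libraries overlapped those of PBS. Per transcript length, Jak2 was 1.29 ± 0.0570 (SD, n = 3) times Tyk2 in PBS and 9.34 ± 0.0845 times at 4 h.

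**Figure D3:**
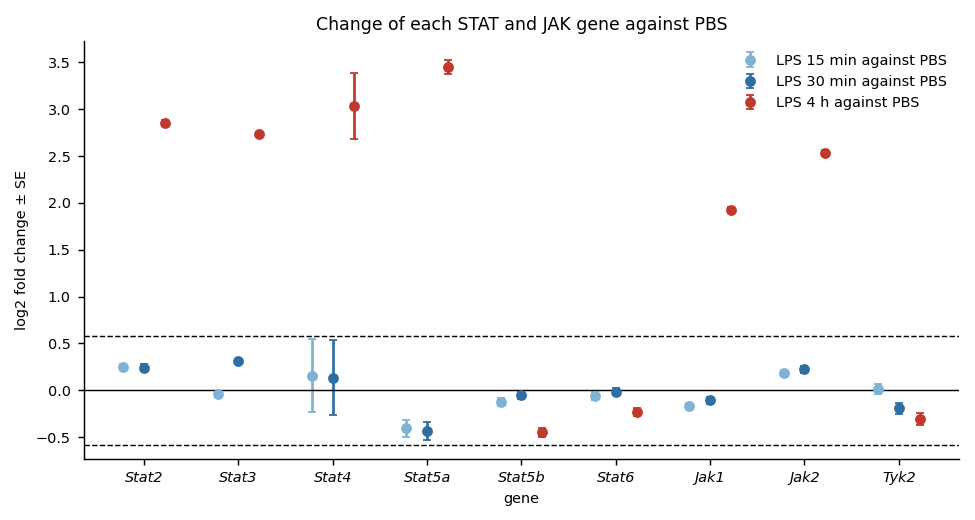
log2 fold change against PBS of each gene at the 3 times, with bars for the SE of the edgeR fit and dashed lines at 0.58 in both directions. The 6 called genes lie between 1.93 and 3.46 at 4 h, and every early point lies inside the dashed lines.

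At 15 and 30 min none of the 9 genes was called by edgeR, DESeq2, or limma, and none had an unadjusted p below 0.05 in the edgeR test beyond 1.5-fold. Over all genes 4.25% were called at 15 min (3.35% higher, 0.898% lower) and 4.62% at 30 min (3.80% higher, 0.815% lower). Against no change, 5 of 9 passed at 15 min, Stat2 and Jak2 higher and Stat5a, Stat5b, and Jak1 lower. At 30 min 6 of 9 passed, Stat2, Stat3, and Jak2 higher and Stat5a, Jak1, and Tyk2 lower. Of all genes, 20.4% passed as higher and 18.2% as lower at 15 min, and 19.7% and 17.2% at 30 min. In CPM, libraries did not overlap those of PBS for 6 of 9 at each of these times, against 49.3% and 46.7% of all genes. At 15 min these were Stat2 and Jak2 above PBS and Stat3, Stat5a, Stat5b, and Jak1 below it. At 30 min they were Stat2, Stat3, and Jak2 above and Stat5a, Stat5b, and Jak1 below. In the deposited normalized table Stat2 overlapped PBS at both times, and Stat5a and Jak1 overlapped it at 30 min. The early comparisons share the PBS libraries. Marker levels of several cell types also differed at 15 min, in both directions. Neuron markers summed to 286 to 296 CPM in PBS and 453 to 463 CPM at 15 min, and erythrocyte markers to 2317 to 2492 and 3477 to 3618 CPM. Smooth muscle cell markers summed to 2346 to 2382 CPM in PBS and 1488 to 1508 CPM at 15 min, and astrocyte markers to 391 to 422 and 255 to 281 CPM. The part of these cells in the early differences was not tested. With library size as the only scaling, Stat2 was at 0.08, Jak2 at 0.06, and Stat3 at 0.14 on the log2 scale at 30 min, where the median of all genes was at -0.17. Stat2 was also at 0.02 with an offset for average transcript length and at 0.01 in the deposited normalized table with 1 added, both at 30 min. Between 30 and 15 min no member was called by the 3 tools, and none had an unadjusted p below 0.05, against 4.76% of all genes called (2.77% higher, 1.99% lower). Against no change 2 passed, Stat3 higher and Tyk2 lower (19.2% and 18.2% of all genes), and 3 did not overlap (47.6% of all genes). Between 4 h and 30 min the 6 genes named above were called higher, against 28.9% of all genes called (17.0% higher, 11.9% lower). Against no change 8 passed, 6 higher and 2 lower (65.3% of all genes, 31.9% higher and 33.3% lower), and all 9 were without overlap (67.5% of all genes). In that last comparison the log2 differences ran from 2.03 for Jak1 to 3.89 for Stat5a.

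The 3 genes not called at 4 h depended on how libraries were scaled. With library size as the only scaling the median of all genes at 4 h was at -0.71, against -0.01 with TMM. On that scale Stat5b was at -1.15, Stat6 at -0.94, and Tyk2 at -1.01, all called lower. The 6 called genes stayed called, from 1.22 for Jak1 to 2.75 for Stat5a.

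On a per-length scale the order of the levels changed between PBS and 4 h. In PBS it ran from Stat3 (53.5 ± 1.82 TPM, SD, n = 3) through Stat2 (48.8 ± 1.34), Stat6 (47.6 ± 2.80), Jak1 (32.1 ± 1.70), Jak2 (21.9 ± 0.966), Stat5b (20.4 ± 0.805), Tyk2 (17.0 ± 1.36), and Stat5a (5.13 ± 0.277) to Stat4 (0.355 ± 0.220). The libraries of Stat2 and Stat6 overlapped, as did those of Jak2 and Stat5b, and the other neighbors were apart. At 4 h Stat3 led at 182 ± 4.56 TPM and Stat2 followed at 162 ± 4.16. Jak2 (67.9 ± 0.993) and Jak1 (66.2 ± 1.99) came next and overlapped each other. Stat5a (33.0 ± 2.97) stood above Stat6 (22.1 ± 2.91), Stat5b (8.24 ± 0.515), Tyk2 (7.27 ± 0.0408), and Stat4 (1.66 ± 0.241). The TPM of each of these genes at 4 h reads lower against PBS than its CPM. TPM carries no TMM factor, which makes up part of this gap. The gap was wider than the missing factor alone gives, and the rest of it was not tested. Stat3 took 21.7% of the summed TPM of the 9 genes in PBS and 33.1% at 4 h, and Stat2 19.8% and 29.4%.

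At 15 min the leading 3, Stat2 (52.8 ± 2.71 TPM), Stat3 (49.5 ± 2.79), and Stat6 (48.0 ± 1.35), overlapped each with the next. At 30 min Stat3 (53.0 ± 0.396) stood clear of Stat6 (41.5 ± 1.39) and Stat2 (40.4 ± 2.03), which overlapped each other. The plot of TPM in PBS and at 4 h shows the exchange of Stat5a with Stat6, Stat5b, and Tyk2.

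**Figure D4:**
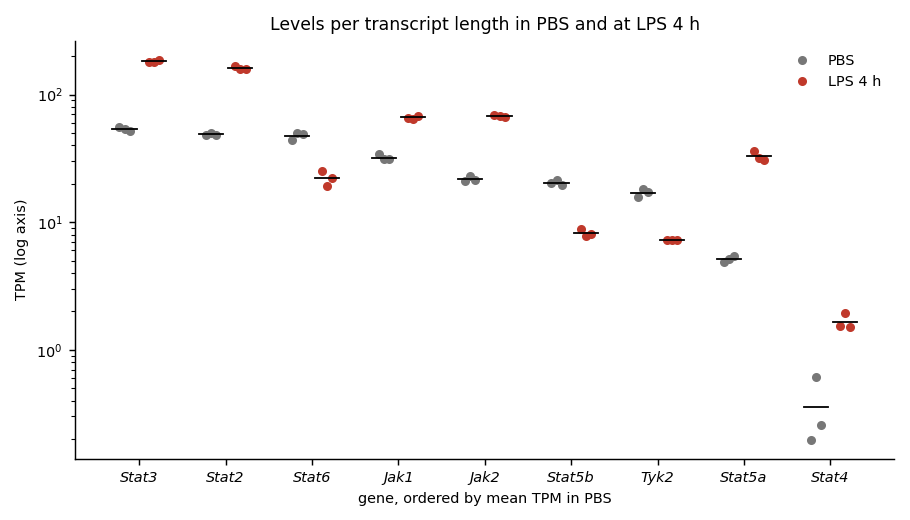
TPM (log axis) of the 9 genes in the 3 PBS and the 3 LPS 4 h libraries, ordered by the PBS mean. Points are libraries and lines are means. Stat5a moves from 5.13 to 33.0 TPM and passes Stat6, Stat5b, and Tyk2.

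Salmon assigned most of the TPM of a gene to 1 transcript for 7 of the 9 genes in the 4 groups. Jak2-202 held 100% of Jak2 in each group and Jak1-201 held 92.8% to 95.6% of Jak1. Stat2-201, the protein-coding form, held 57.5%, 56.6%, and 57.5% of Stat2 in PBS and 69.3%, 68.0%, and 69.4% at 4 h, and the rest in both groups was annotated as retained intron. The groups did not overlap, and the share was 61.8% to 65.0% at 15 min and 59.3% to 73.2% at 30 min. Stat5b-201 held 85.3% to 96.7% of Stat5b in PBS and 68.9% to 76.6% at 4 h, and Stat5b-202 held 0% to 8.00% and 11.3% to 22.6%. Stat3-203 held 78.4 ± 1.57% in PBS and 81.1 ± 2.27% at 4 h, which overlapped. Stat6-201 held 77.5 ± 2.85% and 75.7 ± 7.29%, and Tyk2-203 82.6 ± 10.3% and 79.3 ± 3.49%, which overlapped as well. Stat5a was divided mainly among Stat5a-202 (47.4 ± 10.7% in PBS, 57.3 ± 7.99% at 4 h), Stat5a-201, and the short Stat5a-206. At Stat4 the estimate moved between Stat4-201 and Stat4-202 from 0% to 100% among libraries of 1 group, and no share is read from it. These shares carry no error from read assignment, and 3 libraries against 3 allow no exact permutation p below 0.1.

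The other genes of the pathway were described from 8 lists with 114 genes, of which 103 were tested. The called genes numbered 6 at 15 min (all higher), 17 at 30 min (16 higher, 1 lower), and 71 at 4 h (65 higher, 6 lower). The corresponding shares of all genes tested were 4.25%, 4.62%, and 33.0%. The median log2 fold change of the 103 genes was 0.01, 0.12, and 2.04 at these times. The lists were chosen with results of these data known, so the counts describe them and support no claim about lists in general.

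Among ligands, none of 18 tested was called at 15 min by edgeR, DESeq2, or limma (2 had an unadjusted edgeR p below 0.05), 4 at 30 min, and 12 at 4 h, all higher. Csf3, which drives neutrophil production, was at 0.245 ± 0.0682 CPM in PBS, 10.6 ± 0.423 at 30 min, and 3170 ± 38.4 at 4 h (log2 fold changes of 5.42, SE 0.119, and 13.64, SE 0.0571). Il6, the main ligand upstream of Stat3, had no count in PBS or at 15 min, 0.524 ± 0.199 CPM at 30 min, and 548 ± 13.8 at 4 h. With PBS set to a floor of 3 counts in all (0.0364 CPM), this was at least 14.4-fold and at least 15068-fold higher. Il12b, a subunit of the interleukin-12 that acts through Stat4, reached 10.8 ± 1.27 CPM at 4 h from no count in PBS (at least 297-fold higher). Il12a was not called, with 0.0749, 0.337, and 0.267 CPM in PBS and 0.617, 0.733, and 0.273 CPM at 4 h. Il23a was called higher at 4 h (log2 5.34), with 4 counts in PBS and 93 at 4 h. Il10, an anti-inflammatory ligand of Stat3, reached 0.717 ± 0.321 CPM at 30 min from no count in PBS (at least 19.7-fold higher), and Osm 1.19 ± 0.210 from 0.172 ± 0.111 (log2 2.77, SE 0.530). The calls of Il6, Il10, and Osm at 30 min were lost by limma on the deposited table with a pseudocount of 10, and that of Osm also with a pseudocount of 1. Ifnb1, Ifng, Il13, Il2, Il21, Csf2, Epo, and Lep had too few counts to be tested, so type I and type II interferon transcripts could not be followed through these genes at this depth.

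Of 29 receptor chains tested, 0, 2, and 18 were called at the successive times, and at 4 h 15 were higher and 3 lower. At 15 min 2 had an unadjusted p below 0.05 and DESeq2 and limma called none. Il4ra, the chain that signals through Stat6, was at 35.1 ± 3.02 CPM in PBS and 565 ± 6.91 at 4 h (log2 4.01, SE 0.0451). Osmr, the oncostatin M receptor, was at 85.6 ± 3.69 in PBS, 163 ± 4.66 at 30 min, and 1058 ± 17.2 at 4 h (log2 0.93, SE 0.0324, and 3.63, SE 0.0325). Csf2rb, which has a near-identical mouse paralog so that its reads may be shared, was at 2.44 ± 0.151 and 23.3 ± 3.17 CPM (log2 3.25, SE 0.188). Il10ra was called at 30 min (log2 0.94, SE 0.139, adjusted p = 0.0418), and 15 of 24 alternatives did not call it, among them DESeq2 and the fits without PBS library 1, PBS library 3, LPS 30 min library 2, or LPS 30 min library 3. The largest falls were in Epor, the erythropoietin receptor, by 1.39 (SE 0.178), and in Il27ra by 1.14 (SE 0.220), on the log2 scale. Il27ra was not called by DESeq2, by limma with a pseudocount of 10, or without LPS 4 h library 3.

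Of 18 inhibitors, 0, 3, and 11 were called, with 9 higher and 2 lower at 4 h. At 15 min 1 had an unadjusted p below 0.05 and DESeq2 and limma called none. Socs3, the feedback inhibitor of Stat3 signaling, was at 12.7 ± 1.01 CPM in PBS, 41.8 ± 2.80 at 30 min, and 1130 ± 24.3 at 4 h (log2 1.72, SE 0.0676, and 6.48, SE 0.0572). Usp18, which dampens type I interferon signaling, was at 21.3 ± 0.873 and 725 ± 11.7 (log2 5.09, SE 0.0492), and Socs1, which inhibits the kinases directly, at 4.47 ± 0.194 and 97.2 ± 2.39 (log2 4.44, SE 0.0845). Cish was called at 30 min (log2 0.83, SE 0.0727), and the call was lost by DESeq2, by limma, with library size only, and without PBS library 1. Pias3, an inhibitor of Stat3, fell by 1.23 (SE 0.0629) at 4 h. Socs7 was called lower at 30 min and at 4 h, but its libraries were scattered, with 0.150, 26.1, and 9.89 CPM in PBS and 21.0, 12.6, and 29.4 CPM at 15 min. At 30 min it had 0, 0.215, and 0.134 CPM and at 4 h 0.771, 0.733, and 0.820 CPM. At 4 h its direction turned with average transcript length taken into account (log2 0.31 against -3.97) and with limma on the deposited table (1.75), so no change is read from it.

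Of 8 partners of STAT proteins, none was called at 15 or 30 min by edgeR, DESeq2, or limma, none had an unadjusted edgeR p below 0.05, and 2 rose at 4 h. Irf9, the DNA-binding partner of Stat2, was at 71.7 ± 4.82 CPM in PBS and 294 ± 11.2 at 4 h (log2 2.04, SE 0.0414). Nmi, which binds STAT proteins, was at 18.7 ± 1.98 and 178 ± 5.97 (log2 3.25, SE 0.0654).

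Of 14 interferon-stimulated targets none was called at 15 or 30 min by edgeR, DESeq2, or limma, none had an unadjusted edgeR p below 0.05, and all 14 were called higher at 4 h. The median log2 fold change of these 14 genes was 0.02, 0.11, and 5.33 at the successive times. Mx1, an antiviral GTPase, was at 1.68 ± 0.214 CPM in PBS and 650 ± 10.1 at 4 h (log2 8.60, SE 0.0659). Rsad2 (viperin) was at 26.3 ± 1.33 and 8692 ± 66.9 (log2 8.37, SE 0.0458), and Ifit2 at 20.0 ± 1.37 and 2211 ± 26.1 (log2 6.79, SE 0.0555).

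Of 12 Stat3 targets, 4, 8, and 12 were called, all higher. Fos and Junb, subunits of AP-1 that many signals other than STAT proteins also switch on, were at 3.71 (SE 0.0517) and 3.21 (SE 0.0369) at 15 min, and at 5.63 (SE 0.0489) and 4.82 (SE 0.0383) at 30 min, on the log2 scale. Cebpd was at 1.61 (SE 0.0357) and 3.59 (SE 0.0344) at these times. Lcn2, a secreted protein that binds bacterial siderophores, was at 6.20 ± 0.360 CPM in PBS, 23.0 ± 4.24 at 15 min, 406 ± 6.96 at 30 min, and 10331 ± 80.7 at 4 h. At 30 min Lrg1 was at 2.23 (SE 0.0679), and Timp1 at 5.996 (SE 0.132) at 4 h. At 15 min, when 4 of these targets were called, the Stat3 transcript was at -0.04 (SE 0.0268) and not called. Phosphorylation of the Stat3 protein was not measured, and its part in these calls was not tested.

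Of 8 Stat5 targets, 1, 3, and 7 were called. Bcl2l1, an inhibitor of cell death, was at 0.80 (SE 0.0265) at 15 min and 0.90 (SE 0.0266) at 30 min on the log2 scale, and at 4 h was at 0.56 (SE 0.0276) and not called. At 4 h Pim1 rose by 4.89 (SE 0.0483), Osm by 3.98 (SE 0.519), and Socs2 by 3.22 (SE 0.0468), and Igf1 fell by 1.48 (SE 0.188, not called by limma). Of 6 Stat6 targets tested, 1, 1, and 5 were called, with Ccl11 at 7.81 (SE 0.111), Chil3 at 6.58 (SE 0.253), and Socs1 as above. Chil3, known from myeloid cells, was at 0.209 ± 0.116 CPM in PBS and 20.2 ± 1.75 at 4 h, where the neutrophil markers were also higher, and the part of these cells was not tested. Ccl11 was called at 15 min (log2 1.34, SE 0.224) by edgeR but not by DESeq2 or limma, not when only the groups compared were fitted, and not without PBS library 3 or LPS 15 min library 2. Arg1 was too low to test. Lists share members, among them Il4ra and Osmr (receptors and targets), Osm (ligand and target), and Socs1, Socs2, Socs3, Cish, and Usp18 (inhibitors and targets), and the totals over all lists count each gene once.

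**Figure D5:**
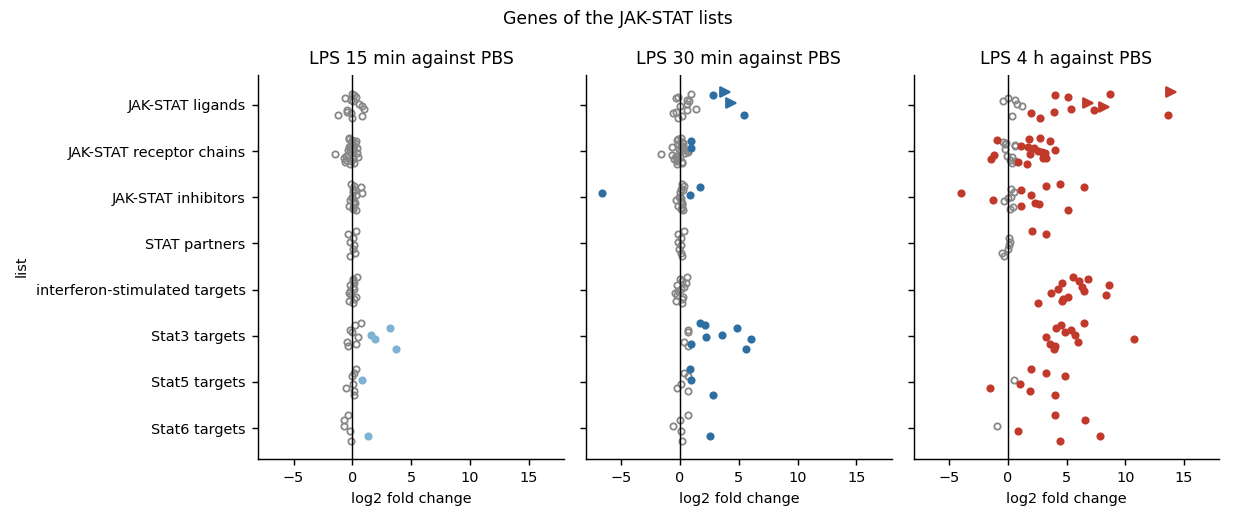
log2 fold change against PBS of each tested gene in the 8 JAK-STAT lists at the 3 times after LPS. Filled points were called and open points were not. Triangles mark lower bounds for Il6, Il10, and Il12b, which had no count in PBS, where called, and these genes are left out elsewhere. The interferon-stimulated targets lie from -0.30 to 0.38 at 15 min and from -0.41 to 0.59 at 30 min, where none is called, and all 14 are called at 4 h.

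The genes most like each called member over the 12 libraries were found by the root mean square (RMS) difference of log2 CPM centered on PBS, among 10600 protein-coding genes with a mean of at least 10 CPM. For Stat2 they were Sema4c (RMS 0.121), Smad1 (0.124), and Rassf4 (0.129), and for Stat3 St3gal1 (0.0623), Hmox1 (0.0988), and Fcer1g (0.106). Stat5a was closest to Tor3a (0.148), Setdb2 (0.161), and Cybb (0.165). Jak1 was closest to Tcf4 (0.0588), Enpp4 (0.0604), and Ankfy1 (0.0691), and Jak2 to Map2k3 (0.0735), Psme2 (0.0820), and Smad1 (0.0840). The closest to Stat4 were Uchl3 (0.322), Spi1 (0.367), and Stat2 (0.367), at a larger distance than for the other members. The pattern was common, since 140 genes lay within 0.5 of Stat5a, 345 of Stat2, 412 of Stat3, 493 of Jak2, and 945 of Jak1.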

How the data were processed

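RNA-seq was done on cerebral vessels of 12 libraries in 4 groups. Libraries were made with the SMART-Seq v4 and Nextera XT kits, and transcripts were quantified by the authors with Salmon 1.2.1. The deposited files give, for each library, the estimated count and the TPM of each transcript, and 1 deposited gene table holds normalized counts (signal) that the authors made with tximport and DESeq2. Of 140948 transcripts, 139852 were joined to GENCODE M21 genes (GRCm38), and the unjoined ones held 0.482% to 0.850% of counts. Estimated counts were summed per gene, rounded, and fitted for all 12 libraries together with the edgeR (4.0.16, R 4.3.3) quasi-likelihood model and TMM factors. Genes were kept by filterByExpr (minimum count 10, total 15, share 0.7). Changes were tested beyond 1.5-fold (0.58 on the log2 scale) by glmTreat, with Benjamini-Hochberg adjusted p-values over all 19150 genes, and, as a second rule, against no change. CPM values are TMM-scaled, SE is the log2 fold change divided by the root of the quasi-likelihood F, and ± is the SD of 3 libraries. TPM was used for levels and transcript shares only.

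The depth of 18.3 to 25.9 M fragments limits genes of few counts, such as Stat4. Alternatives were DESeq2 (1.42.0), limma (3.58.1) on the deposited table with a pseudocount of 1 or 10, other scalings, no filter, a transcript length offset, protein-coding transcripts only, a replicate block, a higher limit of 1.5 on the log2 scale, only the groups compared, Stat5a and Stat5b summed, and leaving out each library. Same-numbered libraries of different groups did not deviate together (18 correlations from -0.04 to 0.05), so they were not paired. The fit was run on simulated data in which a small part of the genes changed, up or down by the same size. That setting differs from 4 h, so it does not test the scaling there. The 9 genes and all lists were chosen with earlier results of these data known. Of each list, called genes with the 3 largest rises and 2 largest falls at 4 h (mean of at least 1 CPM) were named, and up to 5 called at 15 or 30 min. Each library is a separate pool of mice, as the labels give it. The spread between libraries of a group was small, with a common biological coefficient of variation of 0.0524 in edgeR. Squared differences between libraries of a group were 2.21 to 2.93 times counting noise at the median. The SE and p-values measure this spread, and whether the groups also differed in handling was not tested. Promoter sequences are from RefSeq.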

Additional observations from a re-analysis of the deposited data

Results flagged for a closer look

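The difference from PBS of 6 genes was not the same at the 2 times, by the edgeR test of 4 h against 30 min. PBS cancels in it, since the same PBS libraries serve both times, and no collection time is given for them. Time since injection and handling therefore cannot be told apart from LPS in it. The difference at 4 h minus that at 30 min was 2.62 for Stat2, 2.42 for Stat3, 2.90 for Stat4, 3.89 for Stat5a, 2.03 for Jak1, and 2.31 for Jak2 on the log2 scale. The adjusted p was 1.66e-24, 7.78e-26, 2.15e-06, 3.29e-21, 1.19e-21, and 4.08e-23 in that order. For each of the 6 genes the 3 libraries at 4 h lay above the 3 at 30 min.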

How the results depend on the processing

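The 6 genes called at 4 h were called in the same direction under every alternative fitted. Of 1090 alternative values of single genes, 1025 kept direction and side of the threshold, 23 became called (18 by the test against no change, 5 by library size only), none lost a call, and 42 turned direction, none of them a called value. The replicate block left 0, 0, and 6 of the 9 genes called against PBS in time order, and changed no call of a STAT or JAK gene. Against no change, 5 genes passed at 15 min, 6 at 30 min, and 2 between 30 and 15 min, and 45 and 59 pathway genes at 15 and 30 min. Limma with a pseudocount of 10 called 11 pathway genes at 30 min.

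With Stat5a and Stat5b summed, the value set against Stat5b was 1.08 at 4 h against PBS and 1.17 against 30 min, by construction, and that set against Stat5a was 0.06 between 30 and 15 min. The other reversals were small, and their cause was not tested. Between 30 and 15 min, library size only gave -0.07 for Stat5b, -0.10 for Stat6, -0.08 for Jak1, and -0.10 for Jak2. Between the same groups Stat4 was at 0.03 with the length offset, 0.00 with protein-coding transcripts, and 0.03 and 0.02 by limma (pseudocounts 1 and 10), and Stat5a at 0.09, 0.10, and 0.09 by the length offset and limma. Against PBS, Stat6 was at 0.02, 0.00, and 0.00 at 15 min and 0.10, 0.09, and 0.09 at 30 min by those 3, and Stat4 at -0.03 at 30 min by library size. Tyk2 at 15 min was at -0.0044 by RLE factors and by DESeq2, -0.01 by library size, and -0.02 with protein-coding transcripts. Leaving out 1 library gave -0.04 to 0.02 for Stat2, -0.17 to 0.19 for Stat4, and -0.11 to 0.08 for Stat5a between 30 and 15 min. It gave -0.16 to 0.84 for Stat4 and -0.04 to 0.05 for Tyk2 at 15 min, and -0.18 to 0.81 for Stat4 and -0.05 to 0.00 for Stat6 at 30 min against PBS.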
